A study of Mus musculus with 6 samples.

Results

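Respiratory complex I is the largest enzyme of the mitochondrial respiratory chain, and its nuclear genes carry symbols that begin with Nduf. All 45 such genes among the 34745 genes of the deposited table were taken, and no pseudogene symbol of the Nduf series had to be removed. By name, 11 were core (Ndufs and Ndufv), 27 accessory (Ndufa, Ndufb and Ndufc, with Ndufab1) and 7 assembly factors (Ndufaf). RNA sequencing had measured them in cultured mouse spermatogonial stem cells, the germline cells that renew themselves and feed sperm production. The treated group was 3 libraries of cells that received 100 µM bisphenol A (BPA), a monomer of polycarbonate plastic, for about 4 days, and the control group was 3 libraries of untreated cells, for which the titles name no vehicle. Cells of both groups were DBA/2J X c57BL/6J, came from postnatal day 6 and had been passaged 15 to 20 times. Nothing in the labels says that the 3 libraries of a group were separate cultures, so the p-values reflect library-to-library spread alone, which may be technical.

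Complex I takes electrons from NADH, passes them through a flavin and a chain of iron-sulfur clusters to ubiquinone, and pumps protons across the inner mitochondrial membrane. Its peripheral arm, in the matrix, holds the NADH and ubiquinone chemistry in nuclear-encoded catalytic subunits. The proton channels of its membrane arm are encoded by mitochondrial DNA and wrapped by nuclear-encoded accessory subunits, and assembly factors help build the enzyme without staying in it.

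Library totals were 14232872 to 22286517 gene counts with BPA and 13453280 to 19183912 in untreated cells. All 7 spermatogonial marker genes examined were detected and tested, with summed levels of 1094 to 1444 CPM (gene counts scaled to a common library size) with BPA and 1013 to 1083 CPM in untreated cells. Of these 1 fell: Id4, a marker of the stem cell fraction, had 12, 13.9 and 13.5 CPM with BPA and 23.8, 24.8 and 30.5 CPM in untreated cells, without overlap (log2 fold change -1.0, edgeR adjusted p = 0.0401). Id4 passed in 1 of the 6 fits that each left out a library. It did not pass after the GC and length correction given below (-0.92, edgeR adjusted p = 0.0536). Of the 7 markers 5 had a log2 fold change above 0 and 2 below 0, with a median of 0.18. After that correction 1 of them, Etv5, was higher (0.42, edgeR adjusted p = 0.037) and none lower. Of all 13287 tested genes 6.28% fell without the correction. The summed level of 5 Sertoli cell markers was 29.7 to 48.3 CPM with BPA and 13.6 to 16.2 CPM in untreated cells, and 1 of the 3 tested, Sox9, rose (log2 fold change 1.5, edgeR adjusted p = 0.0104). Summed markers of fibroblasts (6 genes) were 38.5 to 65.1 CPM with BPA and 68.2 to 105.9 CPM in untreated cells. Those of endothelium (2 genes) were 2.55 to 8.56 CPM with BPA and 10.7 to 15.9 CPM in untreated cells. None of either list passed the threshold without the GC and length correction. With it the fibroblast markers Col3a1 (-2.02, edgeR adjusted p = 0.0324) and Col1a2 (-0.89, 0.0411) were lower, and no endothelial marker passed. The fibroblast markers Col1a1 (-0.44, 0.238) and Dcn (1.26, 0.653) did not pass with it, and Dcn, at few counts, was above 0 in both fits. Lum and Postn had too few counts to be tested. Of 4 Leydig markers, Cyp17a1, Insl3 and Hsd3b1 had no counts in any library. The remaining Leydig marker, Star, had 11, 19 and 32 counts with BPA and 18, 0 and 10 in untreated libraries (log2 fold change 0.78, edgeR adjusted p = 0.796). The part of these shifts in the complex I values was not tested, and in such bulk RNA fewer cells of a type and less RNA per cell cannot be told apart.

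Complex I transcripts took a smaller share of the counts with BPA. The 45 genes together took 0.338%, 0.314% and 0.332% of all gene counts in BPA replicates 1 to 3, and 0.455%, 0.422% and 0.413% in untreated replicates 1 to 3. Every BPA share was thus below every untreated share. With their 95% Wilson intervals, which cover counting error only, the highest BPA share reached 0.342% and the lowest untreated share 0.410%. Counts from the mitochondrial genome took 1.97% to 2.69% of the total with BPA and 2.04% to 2.57% in untreated cells, so those ranges overlapped.

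Of the 45 genes, 44 had enough counts for edgeR's quasi-likelihood test. Of these, 12 fell at an adjusted p under 0.05 and none rose, while over all 13287 tested genes 6.28% fell and 4.37% rose. None of the 44 was higher at an unadjusted p under 0.05 either, nor at an adjusted p under 0.05 by DESeq2 or limma-voom. At the unadjusted level 23 of the 44 were lower, while of all tested genes 12.5% were lower and 12.8% higher. In 25 of the 44 all BPA values lay below all untreated values, against 15.7% of all tested genes. None showed the opposite separation, which 15.6% of all genes did. The median log2 fold change of BPA over untreated was -0.52 over the 44 genes and 0.10 over all tested genes, and 36 of the 44 were below 0. With library totals alone as the scale the median of all genes moved to 0.21 and that of the 44 to -0.42, so their distance from the whole stayed about the same. Under that scale 831 genes of the whole table rose and 786 fell, against 580 and 835 with the trimmed mean scale used here.

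**Figure D1:**
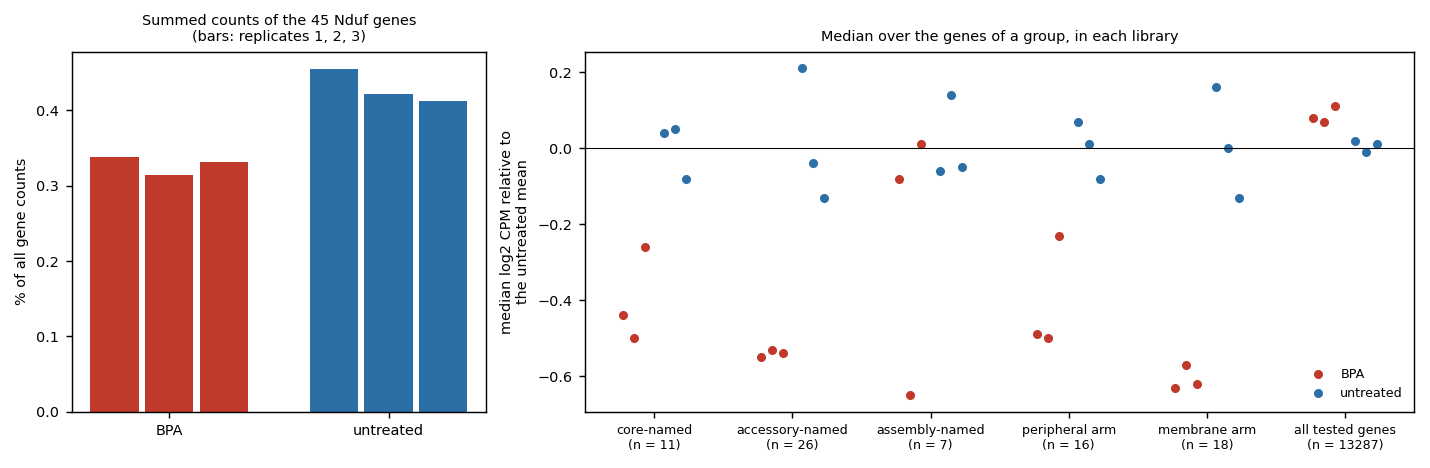
Left, the summed counts of the 45 Nduf genes as a percentage of all gene counts, 1 bar per library, with the 3 BPA bars (0.314% to 0.338%) below the 3 untreated bars (0.413% to 0.455%). Right, the median over the tested genes of each class of log2 CPM relative to the untreated mean, 1 point per library, where each class has its BPA points in the left column and its untreated points in the right column; on the vertical axis accessory-named genes sit at -0.55 to -0.53 with BPA, and assembly-named genes spread from -0.65 to 0.01 with BPA and overlap the untreated points.

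All 12 genes that fell carry subunit names. Accessory-named genes gave 9 of 26 tested (34.6%), with a median log2 fold change of -0.56, and core-named genes 3 of 11, with a median of -0.45. Among the 7 assembly-named genes none passed the threshold by edgeR, DESeq2 or limma-voom, 1 was lower at an unadjusted p under 0.05, and the median was -0.29. The difference between the classes was not tested. Relative to the untreated mean, the median of accessory-named genes was -0.55, -0.53 and -0.54 in BPA replicates 1 to 3 and 0.21, -0.04 and -0.13 in untreated replicates 1 to 3 on the log2 scale. For assembly-named genes the same medians were -0.08, -0.65 and 0.01 with BPA and -0.06, 0.14 and -0.05 in untreated cells, so BPA replicate 2 stood well below the untreated range and BPA replicate 3 lay within it.

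Sorted by place in the enzyme, all 18 tested subunits of the membrane arm had a log2 fold change below 0, and 7 of them fell. Their median was -0.63 and their range -1.32 to -0.02. In the peripheral arm 11 of 16 were below 0 and 5 fell, with a median of -0.35. Of all 13287 tested genes 5924 were below 0 and 6.28% fell. After the GC and length correction given below, the medians were -0.34 for the membrane arm and -0.12 for the peripheral arm, with 6 and 3 genes lower. The membrane arm subunits Ndufa1 (0.36), Ndufs5 (0.20), Ndufb6 (0.08) and Ndufa8 (0.04) were then above 0.

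**Figure D2:**
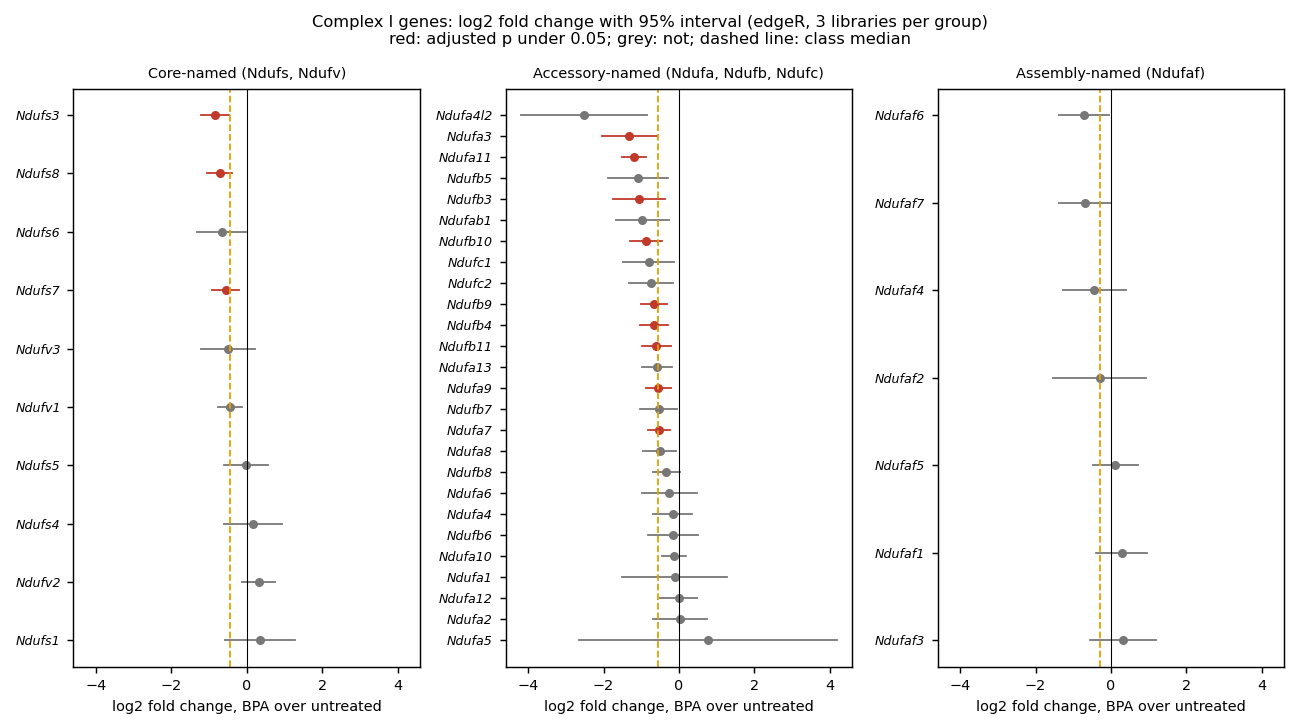
Log2 fold change of BPA over untreated (horizontal axis) for 43 of the 44 tested genes with 95% intervals from edgeR, in 3 panels by class, 3 libraries per group. Red genes passed an adjusted p of 0.05, all of them to the left of 0; intervals past 4.5 are drawn to that limit.

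In the peripheral arm, 3 of the 7 nuclear-encoded catalytic subunits fell. Ndufs3 (chr2:90894634-90904827, minus strand, mm10), a subunit of the ubiquinone-reducing module, had 74, 94.7 and 77.7 CPM in BPA libraries and 154, 148 and 139 CPM in untreated libraries. The groups did not overlap, and the BPA mean was 55.9% of the untreated mean (log2 fold change -0.84, SE 0.17, edgeR adjusted p = 0.00933). Of the 50-base words of its transcripts, 39.7% also occur in transcripts of other annotated genes, among them pseudogenes Gm12251 and Gm11927, so its counts are uncertain.

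Ndufs8 (chr19:3908870-3912717, minus strand), whose iron-sulfur clusters lead electrons towards ubiquinone, had 275, 321 and 239 CPM with BPA and 482, 476 and 420 CPM in untreated cells. It fell to 60.5% of the untreated mean (log2 fold change -0.72, SE 0.15, adjusted p = 0.0109), again with no overlap. It was also the most abundant member per unit length: the authors' FPKM, counts scaled to gene length and library total, averaged 298 ± 21.4 with BPA and 459 ± 23.1 in untreated cells (SD, n = 3 each). Ndufs7 (chr10:80249121-80256794, plus strand) carries the last iron-sulfur cluster before ubiquinone. Its levels were 115, 141 and 108 CPM with BPA and 196, 174 and 170 CPM in untreated cells, without overlap (log2 fold change -0.56, SE 0.16, adjusted p = 0.0474).

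The subunits at the NADH end of the arm did not pass edgeR's threshold. Ndufv1 (chr19:4007497-4012806), which binds NADH and the flavin, had 485, 606 and 458 CPM with BPA and 755, 711 and 647 CPM in untreated cells. The groups did not overlap, but the adjusted p was 0.0726 (log2 fold change -0.45, SE 0.15, 95% interval -0.76 to -0.13). Ndufv1 did pass with DESeq2 (adjusted p = 0.0182), limma-voom (0.0484), upper quartile scaling (0.0497), library size scaling (0.0387) and the replicate block (0.0427). It did not pass after the GC and length correction given below (-0.29, adjusted p = 0.0601), but did with that correction and the block together. Of the 6 fits that each left out a library it passed in 1, with adjusted p up to 0.265. Ndufv2 (chr17:66078795-66101559), an iron-sulfur subunit beside it, had 152, 96.2 and 122 CPM with BPA and 102, 112 and 86.1 CPM in untreated cells (log2 fold change 0.31, SE 0.20, adjusted p = 0.374). The groups overlapped through BPA replicate 2. Ndufs1 (chr1:63143596-63176833), the large iron-sulfur subunit that takes electrons onward from there, had 44.5, 15.3 and 34.2 CPM with BPA and 18.5, 14.9 and 40.6 CPM in untreated cells (log2 fold change 0.34, SE 0.43, adjusted p = 0.674). Its libraries spread widely within both groups.

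Beside the catalytic core, 2 accessory subunits of the peripheral arm fell. Ndufa7 (chr17:33824591-33838316, plus strand) had 177, 179 and 178 CPM with BPA and 264, 252 and 256 CPM in untreated cells (log2 fold change -0.53, SE 0.14, adjusted p = 0.0298). Ndufa9 (chr6:126821721-126849136, minus strand), a nucleotide-binding subunit near the ubiquinone site, had 107, 109 and 108 CPM with BPA and 159, 150 and 165 CPM in untreated cells (log2 fold change -0.55, SE 0.15, adjusted p = 0.0367). Both were nearly constant within the BPA group, with SDs of 1.31 and 0.936 CPM, and neither overlapped between groups. The core-named Ndufs4, Ndufs5, Ndufs6 and Ndufv3, which are accessory subunits in the structure, had log2 fold changes of 0.17, -0.02, -0.67 and -0.50 and did not pass (adjusted p = 0.181 to 0.977). The Ndufs5 value is uncertain because 31.1% of its 50-base words occur in other annotated genes.

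The smallest p of all members belonged to the membrane arm. Ndufa11 (chr17:56717762-56724248, plus strand), a membrane subunit at the contact with complex III in respiratory supercomplexes, had 124, 136 and 115 CPM with BPA and 308, 273 and 279 CPM in untreated cells. It fell to 43.6% of the untreated mean (125 ± 10.7 CPM with BPA and 287 ± 18.9 CPM in untreated cells; log2 fold change -1.20, SE 0.15, edgeR adjusted p = 4.8e-04). It was the only one of the 12 that passed without each of the 6 libraries in turn, with adjusted p up to 0.0108. A pseudogene, Ndufa11b, and the neighbouring gene Vmac hold 6.10% of its 50-base words.

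Ndufa3 (chr7:3617373-3620327, plus strand), a small membrane subunit, had 7.86, 12.2 and 9.58 CPM with BPA and 26.8, 17.5 and 29.8 CPM in untreated cells. This gave the lowest log2 fold change of the 12, -1.32 (SE 0.33, adjusted p = 0.0272), at a low level. Ndufb3 (chr1:58586384-58595964, plus strand) was as rare, with 9.43, 9.81 and 13.7 CPM with BPA and 26.6, 23.3 and 19.0 CPM in untreated cells (log2 fold change -1.07, SE 0.31, adjusted p = 0.0496). It lost its call without any 1 of the 6 libraries.

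Ndufb10 (chr17:24722060-24724478, minus strand), on the outer face of the distal membrane arm, had 50.3, 47.8 and 40.6 CPM with BPA and 90.6, 93.6 and 70.9 CPM in untreated cells (log2 fold change -0.88, SE 0.20, adjusted p = 0.0171). Ndufb11 (chrX:20615326-20617619, minus strand), a single-pass membrane protein, had 133, 127 and 151 CPM with BPA and 238, 222 and 164 CPM in untreated cells (log2 fold change -0.60, SE 0.18, adjusted p = 0.0476). Untreated replicate 3 was the lowest of its group for both, and still above every BPA library. Ndufb9 (chr15:58933810-58939489, plus strand), which binds the acyl carrier protein on the matrix side, had 172, 202 and 160 CPM with BPA and 323, 269 and 259 CPM in untreated cells (log2 fold change -0.67, SE 0.16, adjusted p = 0.0203). Ndufb4 (chr16:37647170-37654453, minus strand) had 129, 112 and 113 CPM with BPA and 222, 179 and 158 CPM in untreated cells (log2 fold change -0.66, SE 0.17, adjusted p = 0.0309). Neither overlapped between groups. Other annotated genes hold 37.0% of the 50-base words of Ndufb4, which has 3 pseudogene copies, 23.4% of Ndufb9 and 17.5% of Ndufb11, so these counts are uncertain.

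In the authors' FPKM, Ndufb9 and Ndufb11 were the next most abundant members after Ndufs8, at 282 ± 10.5 and 158 ± 25.7 with BPA and 419 ± 46.0 and 220 ± 36.5 in untreated cells. The length behind those values was 0.23 to 2.46 times the annotated exon length, depending on the gene, and with the annotated length Ndufv1 took the second place and Ndufb9 the third.

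**Figure D3:**
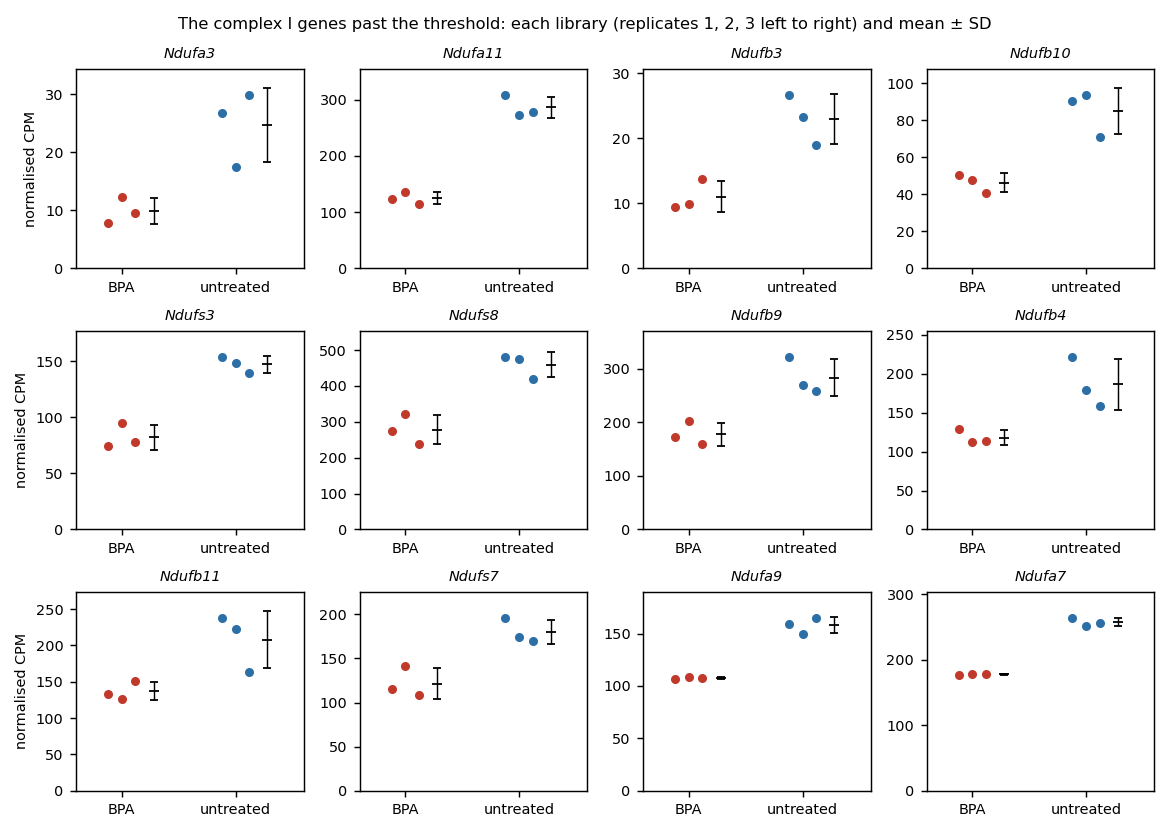
Normalised CPM (vertical axes start at 0) of the 12 genes past an adjusted p of 0.05, 1 point per library in replicate order, with mean and SD beside them. In every panel the 3 BPA points lie below the 3 untreated points; Ndufa7 and Ndufa9 vary least with BPA (178 ± 1.31 and 108 ± 0.936 CPM).

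Leaving out libraries weakened most of these calls. Without BPA replicate 1 or untreated replicate 1, 1 of the 12 calls was left; without untreated replicate 2 there were 2 and without BPA replicate 3 there were 3. Without untreated replicate 3, 7 members were lower, and without BPA replicate 2, 15 were. The corresponding share of all tested genes was 2.51%, 2.06%, 2.31%, 3.08%, 3.44% and 11.7%, in the same order of omission: BPA 1, untreated 1, untreated 2, BPA 3, untreated 3 and BPA 2.

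The libraries also differed in how transcript GC content moved with the level. Across genes, Spearman's rho between a library's deviation from the mean and GC content was -0.395, 0.398 and -0.474 in BPA replicates 1 to 3 and 0.203, 0.211 and -0.022 in untreated replicates 1 to 3, so BPA replicate 2 ran opposite to the other BPA libraries. Over the 44 genes the log2 fold change and GC content had a rho of -0.27 (Pearson's r -0.36), given as a description of genes measured in shared libraries.

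After a lowess correction of every library for transcript GC content and length, 10 members fell, against 7.85% of all tested genes, and the median of the 44 was -0.23. Ndufa11, Ndufs3, Ndufb10, Ndufa3, Ndufa7 and Ndufa9 were in both sets of calls. Ndufs8 (log2 fold change -0.18, adjusted p = 0.266), Ndufb9 (-0.02, 0.932), Ndufb11 (-0.08, 0.817), Ndufb4 (-0.29, 0.273), Ndufs7 (-0.28, 0.195) and Ndufb3 (-0.82, 0.0675) no longer passed. Called only with the correction were Ndufab1, the mitochondrial acyl carrier protein (-1.30, adjusted p = 0.00982), and the membrane arm subunits Ndufb5 (-1.26, 0.0310), Ndufb8 (-0.50, 0.0389) and Ndufc1 (-0.86, 0.0376). Other annotated genes hold 15.6% of the 50-base words of Ndufb5 and 12.3% of those of Ndufab1, so these counts are uncertain. The part of GC content in the uncorrected differences was not tested beyond this correction. With the correction 9 of 26 accessory-named and 1 of 11 core-named genes fell, and the median of assembly-named genes moved to 0.04.

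**Figure D4:**
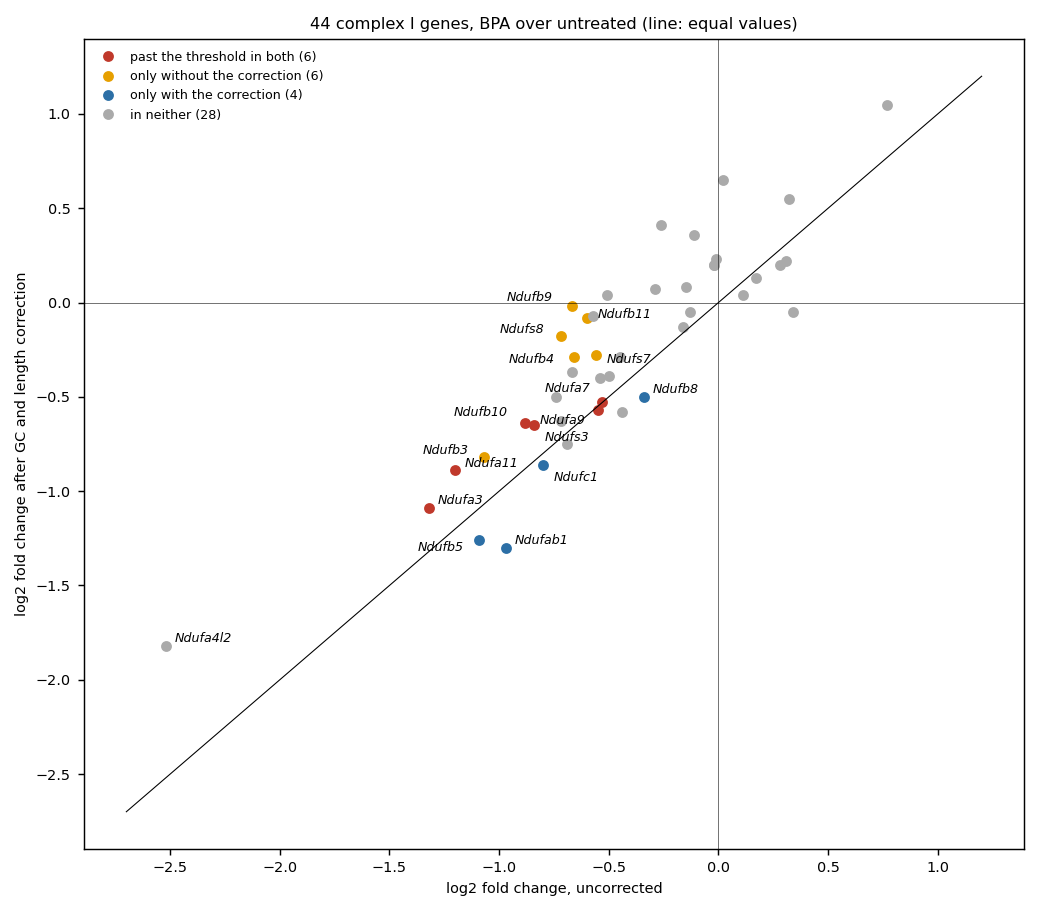
Log2 fold change of BPA over untreated for the 44 tested genes without correction (horizontal axis) and after the lowess correction for transcript GC content and length (vertical axis), with the line of equal values. Of the 12 genes past an adjusted p of 0.05 uncorrected, 6 also passed corrected (red) and 6 did not (orange), while 4 passed only corrected (blue).

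Among members outside the 12, Ndufa4l2 (chr10:127514939-127517152), a relative of Ndufa4 known as a target of hypoxia signalling and not placed in either arm here, had the lowest log2 fold change of all, -2.52 (SE 0.77, adjusted p = 0.0576). It was counted 20, 21 and 29 times with BPA and 129, 149 and 22 times in untreated libraries, which is 1.31, 1.04 and 1.18 CPM with BPA and 7.07, 11.7 and 1.6 CPM in untreated cells. Untreated replicate 3 was close to the BPA libraries, and without it Ndufa4l2 passed. Ndufa4 itself, a subunit of complex IV first described in complex I, had a log2 fold change of -0.16 (adjusted p = 0.735).

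The highest log2 fold change was that of Ndufa5, 0.77, with a 95% interval of -2.64 to 4.19. Its counts were too few to place it, with 0, 1.59 and 4.77 CPM with BPA and 1.97, 0 and 1.74 CPM in untreated cells. Ndufb2 was not tested, with 0, 0 and 4 counts in BPA libraries and 1, 48 and 1 in untreated libraries.

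Among accessory subunits that missed the threshold, Ndufb5 (-1.09), Ndufab1 (-0.97), Ndufc1 (-0.80), Ndufc2 (-0.74), Ndufa13 (-0.57), Ndufb7 (-0.54), Ndufa8 (-0.51) and Ndufb8 (-0.34) had log2 fold changes below 0, with adjusted p between 0.0704 and 0.228. Closer to 0 were Ndufa6 (-0.26), Ndufb6 (-0.15), Ndufa10 (-0.13), Ndufa1 (-0.11), Ndufa12 (-0.01) and Ndufa2 (0.02), with adjusted p of 0.658 and above. Counts of Ndufb6, Ndufa13 and Ndufa12 are uncertain, as 34.1%, 28.5% and 17.2% of their 50-base words occur in other annotated genes.

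The assembly factors ranged from Ndufaf6, at 21, 11.3 and 16.6 CPM with BPA and 25, 29.5 and 25.8 CPM in untreated cells (log2 fold change -0.72, SE 0.30, adjusted p = 0.161), to Ndufaf3. Ndufaf3, which acts early on the ubiquinone module, had 8.64, 11.2 and 7.14 CPM with BPA and 7.29, 6.67 and 7.62 CPM in untreated cells (log2 fold change 0.32, SE 0.40, adjusted p = 0.672). Ndufaf6 did not overlap between groups and Ndufaf3 did. Ndufaf7, an arginine methyltransferase, had a log2 fold change of -0.69 without overlap (adjusted p = 0.205). The values for Ndufaf4, Ndufaf2, Ndufaf5 and Ndufaf1 were -0.44, -0.29, 0.11 and 0.28, with adjusted p of 0.528 to 0.857. The Ndufaf2 value is uncertain because 80.9% of its 50-base words occur in other annotated genes.

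Promoter windows were read as a description, and the part of any motif in the changes was not tested. RefSeq windows (build GRCm38.p6), from 250 bases before to 50 bases after a gene's start, matched 39 of the 45 genes with 41 windows, among them 11 of the 12 that fell. Shown are 4 windows of genes that fell, which hold motifs known from promoters of respiratory chain genes. Capitals mark the motifs, searched on both strands: the NRF1 motif GCGCA followed by any base and GCGC, the cyclic AMP response element (CRE) TGACGTCA, the ETS motif CCGGAAG bound by GABPA, and the YY1 motif ATGGCGGC. The windows of Ndufa3, Ndufb10, Ndufb11 and Ndufb3, which also fell, hold none of these motifs and are not shown. Ndufa11 (chr17:56717512-56717811, plus strand) has a CRE and an NRF1 match, Ndufb4 (chr16:37654319-37654618, minus strand) has 3 NRF1 matches, Ndufs3 (chr2:90904672-90904971, minus strand) has an ETS match on each strand, and Ndufa7 (chr17:33824395-33824694, plus strand, 1 of 2 windows) has a YY1 match.
Ndufa11: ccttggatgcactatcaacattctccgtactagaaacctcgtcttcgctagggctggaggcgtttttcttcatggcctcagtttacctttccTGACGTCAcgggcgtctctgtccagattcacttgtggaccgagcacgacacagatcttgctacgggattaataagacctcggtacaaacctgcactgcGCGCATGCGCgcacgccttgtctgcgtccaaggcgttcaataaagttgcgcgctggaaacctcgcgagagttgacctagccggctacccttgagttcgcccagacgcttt
Ndufb4: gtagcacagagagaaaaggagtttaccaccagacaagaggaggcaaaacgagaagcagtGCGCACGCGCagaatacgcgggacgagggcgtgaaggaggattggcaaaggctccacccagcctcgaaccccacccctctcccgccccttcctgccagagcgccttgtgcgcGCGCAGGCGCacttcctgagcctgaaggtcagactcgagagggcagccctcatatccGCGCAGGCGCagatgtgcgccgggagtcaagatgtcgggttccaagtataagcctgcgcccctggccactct
Ndufs3: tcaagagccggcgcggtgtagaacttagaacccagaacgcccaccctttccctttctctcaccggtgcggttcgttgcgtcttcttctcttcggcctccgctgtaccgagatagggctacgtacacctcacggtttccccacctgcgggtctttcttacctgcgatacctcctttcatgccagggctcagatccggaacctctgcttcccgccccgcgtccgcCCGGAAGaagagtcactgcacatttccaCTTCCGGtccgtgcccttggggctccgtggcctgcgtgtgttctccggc
Ndufa7: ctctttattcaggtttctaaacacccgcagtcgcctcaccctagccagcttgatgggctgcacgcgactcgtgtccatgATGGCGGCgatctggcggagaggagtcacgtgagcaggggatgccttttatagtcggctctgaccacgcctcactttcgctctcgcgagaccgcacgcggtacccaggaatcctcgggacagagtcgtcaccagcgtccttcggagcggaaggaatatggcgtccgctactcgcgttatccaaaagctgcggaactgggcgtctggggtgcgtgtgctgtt

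The NRF1 motif was in 24.4% of the 41 member windows and in 4.6% of all 32851 RefSeq windows. The YY1 motif was in 17.1% of member windows, against 2.24% of all, and the CRE in 7.32%, against 1.79%. ETS matches were in 12.2% of member windows, against 8.86% of all. Matches to GGGCGGGG, a motif of SP1 and related factors, were in 22%, against 17.6%, and none of the member windows held TGATGNAA, a motif of C/EBP and ATF factors found in 3.97% of all. Member windows had a median GC content of 59.3%, all windows 52.7%.

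Within complex I, the genes that fell and the tested genes that did not pass were also counted apart. NRF1 was in 2 of the 12 windows of genes that fell (16.7%) and in 8 of the 28 windows of the others (28.6%), which include both windows of Ndufa5. YY1 was in 4 of 12 (33.3%), which include both overlapping windows of Ndufa7, and in 3 of 28 (10.7%). The SP1 motif was in 1 of 12 (8.33%) and in 8 of 28 (28.6%). ETS matches were in 2 of 12 (16.7%) and in 3 of 28 (10.7%), and the CRE in 1 of 12 (8.33%) and in 1 of 28 (3.57%). The median GC content was 56.8% for windows of genes that fell and 59.5% for the others. None of these differences was tested. A match describes the letters of a window and shows no binding.

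The complex I genes of the mitochondrial genome and other genes of the enzyme's surroundings were read from lists. Beside the counts in these lists, 6.28% of all 13287 tested genes fell and 4.37% rose by edgeR. Of the 7 mitochondrially encoded subunits, which form the proton-pumping membrane core, 1 fell and none rose by edgeR, and the median log2 fold change was -0.42. The 1 was mt-Nd3, with 153, 73.4 and 149 CPM with BPA and 541, 498 and 377 CPM in untreated cells (log2 fold change -1.92, SE 0.25, adjusted p = 7.0e-04). It passed without each library in turn and after the GC and length correction (-1.19, adjusted p = 6.4e-04). The other 6 lay between -0.98 and -0.31. At an unadjusted p under 0.05, 5 of the 7 were lower, against 12.5% of all tested genes. After the correction the median of the 7 was -0.08.

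Of 13 further assembly and iron-sulfur factors, Tmem186, which works with the assembly complex of the membrane arm, rose and none fell; the median log2 fold change was -0.14. It had 33.7, 27.2 and 34.1 CPM with BPA and 10.1, 17.8 and 13.6 CPM in untreated cells (log2 fold change 1.2, SE 0.30, adjusted p = 0.0254), and the groups did not overlap. It lost the call without 4 of the 6 libraries in turn.

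Complex II, which feeds electrons from succinate into the same ubiquinone pool, was read as subunits and assembly factors together. It had 1 of 7 tested genes lower and none higher, and the median log2 fold change was -0.15. That gene was Sdhb, its iron-sulfur subunit, with 299, 323 and 266 CPM with BPA and 481, 471 and 459 CPM in untreated cells (log2 fold change -0.67, SE 0.14, adjusted p = 0.01). Sdha, the flavin subunit, had 98.3, 99.3 and 129 CPM with BPA and 109, 134 and 136 CPM in untreated cells (log2 fold change -0.22, adjusted p = 0.494). The subunits Sdhc (-0.48) and Sdhd (-0.15) were also below 0. The assembly factors Sdhaf1 (0.42), Sdhaf2 (0.64) and Sdhaf4 (7.16, no counts in untreated libraries) were above 0 without passing. After the GC and length correction Sdhb (-0.43, edgeR adjusted p = 0.0194) and Sdhc (-0.55, 0.0308) were lower and none higher. Of all tested genes 7.85% were then lower, and the list median was 0.08.

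None of 11 tested regulators of mitochondrial biogenesis passed by edgeR or limma-voom, with 1 higher by DESeq2, and 1 higher and 1 lower at an unadjusted p under 0.05. Their median was 0.25. After the GC and length correction 1 was higher, Tfb1m (1.65, adjusted p = 0.0419), and none lower. Uncorrected, Tfb1m averaged 8.78 CPM with BPA and 3.09 CPM in untreated cells (log2 fold change 1.5, adjusted p = 0.0733). The most abundant were Pprc1, a coactivator, with 357, 626 and 287 CPM with BPA and 483, 492 and 469 CPM in untreated cells (log2 fold change -0.18, adjusted p = 0.677), and Polrmt, the mitochondrial RNA polymerase, with 129, 202 and 114 CPM with BPA and 113, 123 and 139 CPM in untreated cells (0.25, adjusted p = 0.513). Both were highest in BPA replicate 2. Ppargc1a, the best known coactivator of this programme, had no counts in any library.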

How the data were processed

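Total RNA of the 6 samples was made into libraries with a TruSeq RNA v2 kit, which does not mark strand, per the labels' protocols. The submitters' processing notes name TopHat2 2.0.9, HTSeq and mm10. Which HTSeq version, strand setting or annotation release was used is not given in the sources used here. In the deposited table are raw counts per gene and the authors' FPKM, which equal counts over a gene length and the column's total to within a relative deviation of 9.2e-04, so the lengths were recovered from them. Columns were matched to samples by the code in the titles.

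After a low-count filter (filterByExpr) and TMM scaling, the deposited counts were compared by the quasi-likelihood test of edgeR 4.0.16 (R 4.3.3), BPA against untreated without a block, with Benjamini-Hochberg adjustment over 13287 genes and a threshold of 0.05. An adjusted p is from this test unless the sentence names another fit (the GC and length correction, a left-out library or an alternative). CPM are counts scaled to the adjusted library size, and the SE is the log2 fold change over the square root of F. Relative library values are log2 of CPM plus 0.5. Replicates differed by more than sampling noise (chi-square per degree of freedom 19.6 to 91.1 over genes with at least 20 summed counts), so none was merged. Depth limits precision for rare members, which have wide intervals.

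Copies and overlaps were searched as shared 50-base words and shared exon bases in GENCODE vM21, where 98.6% of the gene identifiers were found. GC content came from its longest transcripts, and the GC and length correction was a lowess fit per library (span 0.3) given to edgeR as offsets. The scripts were tested on simulated data. Alternatives were DESeq2 1.42.0, limma-voom (limma 3.58.1), other scalings and filters, a stricter threshold, the replicate number as a block, and omission of single libraries. Plots used Python 3.11.15 with matplotlib 3.10.9.

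Values in every sample are given for members past the threshold, the catalytic subunits (1 is not reported here), the 3 most abundant members per length, and the highest and lowest log2 fold change of each class, and, from each other list, for genes past the threshold or else the 2 most abundant. Gene members and lists were chosen with earlier results of these data known. Mitochondrial subunits other than mt-Nd3 are given as a range.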

Additional observations from a re-analysis of the deposited data

How the results depend on the processing

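The directions of the medians and the absence of higher complex I genes held under the alternatives run, except that the median of assembly-named genes changed sign. At an FDR of 0.01, 155 genes of the whole table were higher and 322 lower, with 2 complex I genes lower, 1 core-named and 1 accessory-named. DESeq2 gave 938 higher and 1228 lower genes of the whole table (9.24% lower), with 14 lower accessory-named genes, no low-count filter gave 927 higher genes, and library size scaling left 5 lower accessory-named genes and a complex I median log2 fold change of -0.42. The GC and length correction gave 991 higher genes, 1 lower core-named gene, and medians of -0.23 for complex I, -0.18 for core-named, -0.34 for accessory-named and 0.04 for assembly-named genes. Together with the replicate block it gave 1021 higher genes and medians of -0.24, -0.19, -0.35 and 0.01 in that order. The causes were not tested, apart from the stricter threshold itself. Restricting the members to the 26 with under 5% shared sequence and exon overlap, an alternative chosen after seeing the data, left 6 lower genes, 4 of them accessory-named, among fewer genes by construction.

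Leaving out each library in turn, with fewer samples by construction, gave 162 to 1207 higher and 282 to 1600 lower genes, 1 to 15 lower complex I genes, 0 to 4 lower core-named and 1 to 11 lower accessory-named genes. The medians ranged from -0.54 to -0.48 for complex I, from -0.45 to -0.12 for core-named, from -0.60 to -0.51 for accessory-named and from -0.46 to 0.07 for assembly-named genes. The core-named median was -0.12 without untreated replicate 3. Correlations of the deviations of libraries with the same replicate number were -0.021, 0.061 and 0.067. Libraries with different numbers gave -0.079 to 0.028. Values this small cannot show whether the numbers pair the samples, and the labels state no pairing. With the replicate block alone, 14 complex I genes were lower, 11 of them among the 12, and the medians were -0.52 for complex I, -0.41 for core-named, -0.56 for accessory-named and -0.35 for assembly-named genes, with 721 genes of the whole table higher and 985 lower, 4 core-named, 10 accessory-named and 0 assembly-named genes lower. Rare members such as Ndufb2 and Ndufa5 have too few counts for a difference to be detectable.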

Other observations

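Enzymes that share quinones or NADH with complex I without belonging to it gave 2 of 8 tested genes lower and none higher by edgeR. Of all tested genes 6.28% fell and 4.37% rose, and the median log2 fold change of the 8 was -0.04. Nqo1, a cytosolic quinone reductase and a known target of the oxidative stress factor Nrf2, had 5.96, 2.63 and 2.81 CPM with BPA and 29.6, 34.5 and 21.4 CPM in untreated cells (log2 fold change -2.92, SE 0.41, edgeR adjusted p = 0.00103), and it passed without each library in turn. Aifm2, a reductase that regenerates ubiquinol outside mitochondria, had 30.0, 34.3 and 25.8 CPM with BPA and 50.1, 73.1 and 47.3 CPM in untreated cells (log2 fold change -0.92, SE 0.25, adjusted p = 0.0332), and it passed in 1 of the 6 fits that each left out a library. Neither overlapped between groups. After the GC and length correction 3 of the 8 were lower and none higher, against 7.85% of all tested genes lower. They were Nqo1 (-2.85, edgeR adjusted p = 4.2e-04), Aifm2 (-0.79, 0.0229) and Ndor1 (-0.70, 0.0114). Uncorrected, Ndor1 was at -0.61 (edgeR adjusted p = 0.117). Of 3 matrix proteases, none passed by edgeR, 2 were lower at an unadjusted p under 0.05 and by DESeq2 and limma-voom, and the median was -0.50. Of all tested genes 12.5% were lower at the unadjusted level, 9.24% by DESeq2 and 6.93% by limma-voom. Clpp had 175, 150 and 124 CPM with BPA and 233, 251 and 190 CPM in untreated cells (-0.59, adjusted p = 0.0532), and Lonp1 had 141, 174 and 144 CPM with BPA and 217, 219 and 213 CPM in untreated cells (-0.50, adjusted p = 0.0568). After the GC and length correction Clpp was at -0.05 (edgeR adjusted p = 0.902) and Lonp1 at -0.23 (0.258). The median of the proteases was then -0.05.

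Over the 6 libraries the log2 CPM profile of Ndufa11 was most like those of 2700094K13Rik, 2610318N02Rik, Rhoc, Stmn1 and Akr1b3 among 7939 genes with a mean of at least 10 CPM (Pearson's r 0.9973 to 0.9984, given as a description). Rhoc is a small GTPase, Stmn1 a microtubule regulator and Akr1b3 an aldose reductase.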
